A study of Cenchrus americanus with 9 samples.

Results

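Pearl millet roots of 3 types were compared here through the 55 genes, of 19754 in the table, whose transcript level was stepped down from crown to primary to lateral roots. They were chosen from the measured values: the lowest crown library had to reach a normalised count of 100 and 1.5 times the highest primary library, the lowest primary library had to reach 1.5 times the highest lateral library, and each root type needed at least 1 value above 0. A normalised count is a gene's count divided by 1 scaling factor per library, and it was not divided by gene length. Because all 9 libraries entered this choice, the order of the root types and the gaps between them are given below as a description, with no test.

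The plants were of Tift23DB, the reference genotype of pearl millet, and were grown for 15 days in rhizotrons, thin boxes with a transparent face. The groups were crown root tips (the last 5 cm), primary root tips (the last 5 cm) and lateral roots taken from primary roots, for which no apex length is given. Each group had 3 libraries, and each library was made from the roots of 3 plants pooled together. No source used here says whether the plants of different libraries or root types were separate, so p-values measure only the spread between these libraries, which may be technical. No treatment or mutant was involved, and the length of the root piece changes together with the root type in any comparison with lateral roots, so that the type of root and the part of it sampled cannot be told apart there.

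In cereals the primary root grows out of the embryo, crown roots form later from the nodes at the base of the stem, and lateral roots start in the pericycle of an existing root. A root tip holds the meristem, where cells divide, and behind it the zones where cells elongate and mature, so a piece of root is a mixture of cell types. In such bulk samples, fewer cells of a type and less RNA per cell cannot be told apart. Genes are given by their Pgl_GLEAN identifiers, because no gene names, functions, positions or sequences were used here. For the same reason the labelled root types were not checked against marker genes.

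Recovered counts, which are normalised counts divided by the value of 1 count in that library, summed to between 49026933 and 55457911 per crown root library, between 39739052 and 58752339 per primary root library and between 45602970 and 64062081 per lateral root library. Depth thus overlapped between the root types. The total of normalised counts, however, was higher in every crown root library than in any other library. It was between 5.29e+07 and 5.80e+07 in crown roots, between 4.72e+07 and 5.05e+07 in primary roots and between 4.84e+07 and 4.98e+07 in lateral roots. Levels and steps below are on this scale, and values with equal totals are given further below. Under the same thresholds 204 genes had the opposite order, with lateral above primary above crown roots. The 4 orders with primary roots at the top or the bottom held 1 gene between them.

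The level of the 55 genes ran over a wide range, which reflects gene length as well as expression. The crown root mean was between 148 and 113044 normalised counts with a median of 2808. The primary root mean was between 43.3 and 33552 with a median of 1061, and the lateral root mean between 1.44 and 15497 with a median of 261. Over all genes the median crown root mean was 620, the median primary root mean 633 and the median lateral root mean 682. In crown roots 45 of the 55 genes were above the median of all genes, while 31 were in primary roots and 15 in lateral roots. A mean under 100 was seen for 0 genes in crown roots, which the choice fixed, for 10 in primary roots and for 22 in lateral roots. Most of the group stood in the upper part of the crown root table and the lower part of the lateral root table. The thresholds used these same values and favour such positions, so this is a description of the choice.

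**Figure D1:**
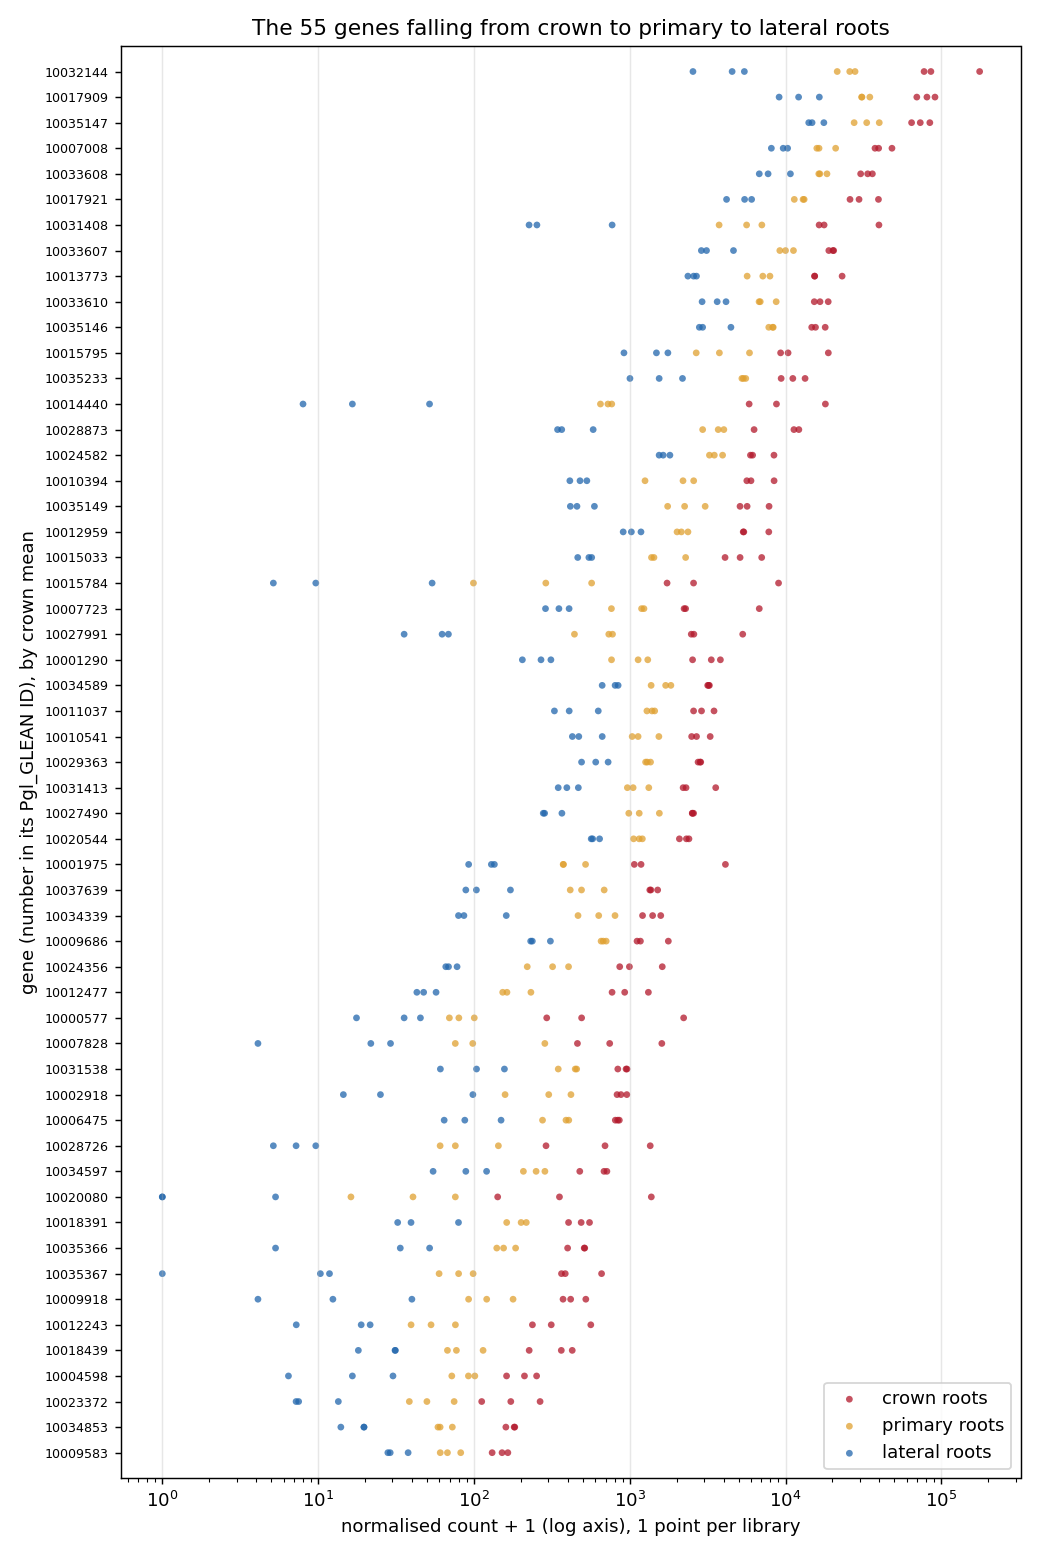
Normalised count + 1 (log axis) of the 55 genes in each of the 9 libraries, with crown roots in red, primary roots in yellow and lateral roots in blue, and genes ordered by their crown root mean (highest at the top). The 3 colours stand apart in each row, as the choice of the genes requires, and lateral root means run down to 1.44 normalised counts.

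Where values of single libraries are listed, they are in the order of replicates 1 to 3. The 55 genes together took 1.27%, 0.963% and 0.989% of all normalised counts in the crown root libraries, 0.445%, 0.429% and 0.465% in the primary root libraries, and 0.198%, 0.156% and 0.145% in the lateral root libraries. Crown root replicate 1 stood above the other crown root libraries and lateral root replicate 1 above the other lateral root libraries. The primary root libraries were closer together. Between 37.0% and 45.0% of this sum came from only 3 genes, Pgl_GLEAN_10032144, Pgl_GLEAN_10017909 and Pgl_GLEAN_10035147, named here after their values were seen.

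**Figure D2:**
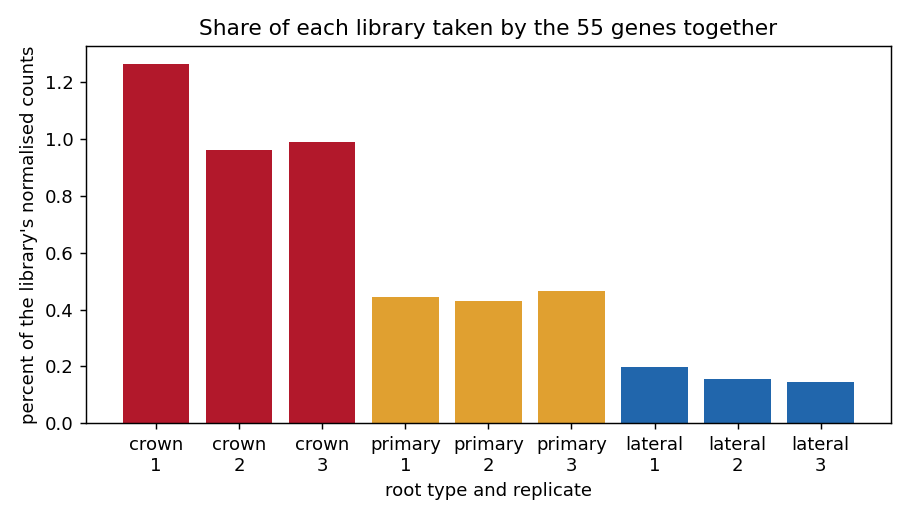
Share of each library's normalised counts, in percent, taken by the 55 genes as a sum, with 1 bar for each of the 9 libraries. Crown root bars lie between 0.963% and 1.27%, primary root bars between 0.429% and 0.465% and lateral root bars between 0.145% and 0.198%.

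The size of the 2 steps was measured as the difference between root types in the mean of log2(normalised count + 1), a scale on which differences of genes with few counts come out too small. From crown over primary roots the step had a median of 1.44 over the 55 genes and ran from 0.93 to 3.77. From primary over lateral roots the median was 1.86, and the range was 0.92 to 5.22. Over all 19754 genes the median was -0.02 for crown over primary roots and 0.00 for primary over lateral roots. As ratios of the root type means, the median gene was 2.66 times higher in crown than in primary roots and 3.58 times higher in primary than in lateral roots. By the choice of the genes, no library of one root type overlapped with those of the next for any of the 55. Among all genes 15.1% had every crown root library above every primary root library, 17.4% had every primary above every lateral root library and 20.7% had every crown above every lateral root library. A step of at least 1, which is a doubling, was found for 48 of the 55 genes between crown and primary roots and for 53 between primary and lateral roots. A step of at least 2 was found for 13 and 23 genes, and a step of at least 3 for 4 and 11 genes.

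The step between primary and lateral roots was the larger for 41 genes and the step between crown and primary roots for 14 genes. The crown to primary step made up 45.3% of the whole log2 difference at the median, with a range of 31.1% to 68.1%. For 20 genes the steps differed by less than 0.25 on the log2 scale, so that primary roots lay close to midway between crown and lateral roots. For 11 genes they differed by more than 1, and in 10 of these the larger step was that between primary and lateral roots. Genes with a large step between crown and primary roots mostly also had a large one between primary and lateral roots (Pearson's r = 0.75, Spearman's rho = 0.67, across 55 genes). This is a description across genes, which are not independent replicates, and the steps share the same primary root values.

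**Figure D3:**
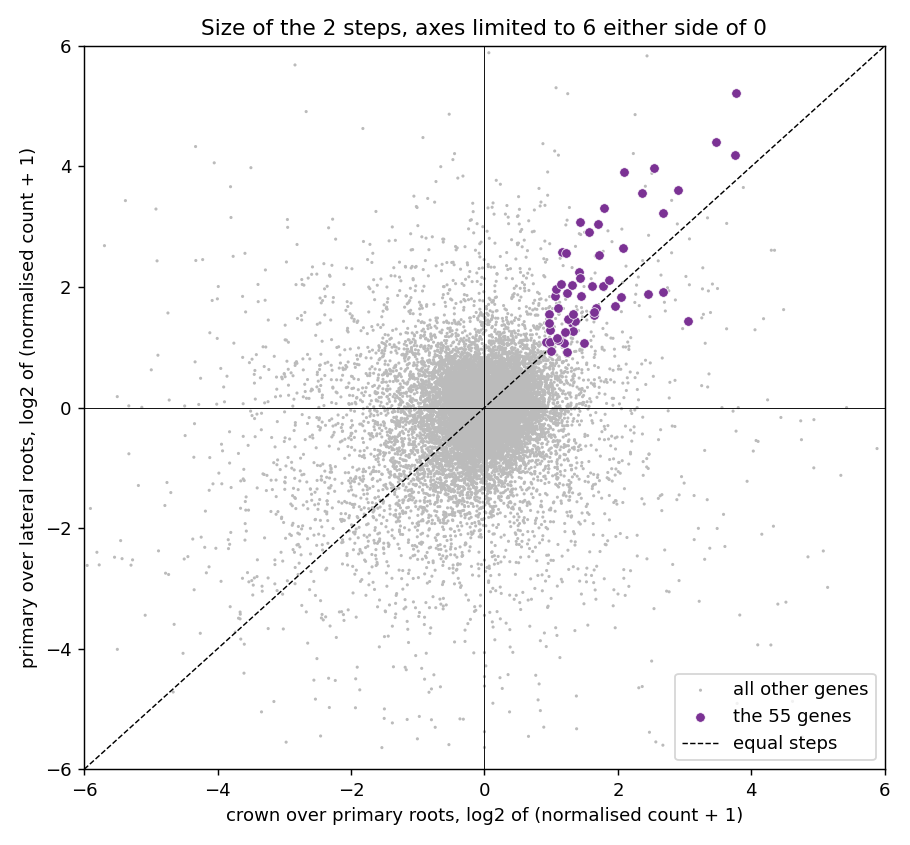
Log2 difference between crown and primary roots (horizontal axis) and between primary and lateral roots (vertical axis), on log2(normalised count + 1), for the 55 genes in purple and all other genes in grey, of which 25 lie outside the axes. The 55 genes lie in the upper right corner by the way they were chosen, and 41 of them are above the dashed line of equal steps.

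Median steps were larger among genes with lower crown root levels, though the thresholds that chose the genes used the same values. The 14 genes with a crown root mean of at least 10000 had median steps of 1.28 between crown and primary roots and 1.42 between primary and lateral roots. The 23 genes between 1000 and 10000 had medians of 1.44 and 1.83, and the 18 genes under 1000 had medians of 1.71 and 2.30. The spread within each of these sets was wide, since the largest steps of all were found in the set with the highest levels. Across the 55 genes the difference between crown and lateral roots was only weakly related to the log2 crown root mean (Pearson's r = -0.22, Spearman's rho = -0.34).

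Pgl_GLEAN_10014440 had the largest step on both sides. Its normalised counts were 18013, 5838 and 8740 in the crown root libraries, 765.65, 723.39 and 647.59 in the primary root libraries, and 50.89, 7 and 15.59 in the lateral root libraries. The primary root libraries differed little among themselves, while the crown and the lateral root libraries each spread over several-fold. The steps were 3.77 between crown and primary roots and 5.22 between primary and lateral roots on the log2 scale. The step between primary and lateral roots was 5.95 when lateral root replicate 1 was left out and 4.60 when lateral root replicate 2 was. The difference between crown and lateral roots, 8.997, was the largest in that direction of all 19754 genes. In crown roots its mean of 10864 ± 6359 (SD, n = 3) was above that of 94.9% of genes, and in lateral roots its mean of 24.5 ± 23.3 (SD, n = 3) was above that of 6.36%.

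Pgl_GLEAN_10015784 had the second largest step between crown and primary roots, 3.75, with 4.19 between primary and lateral roots. It had 9014, 1735 and 2567 normalised counts in the crown root libraries, 568.33, 98.28 and 288.24 in the primary root libraries and 8.66, 52.91 and 4.16 in the lateral root libraries. No root type was tight for this gene, with a highest library 5.20 times the lowest in crown roots, 5.78 times in primary roots and 12.7 times in lateral roots. The step between crown and primary roots was 3.06 without crown root replicate 1 and 3.08 without primary root replicate 2, and 4.34 without primary root replicate 1. The step between primary and lateral roots ranged with the library left out, being 5.17 without lateral root replicate 2 and 3.48 without replicate 3 of the same root type, and 3.61 or 4.87 without primary root replicate 1 or 2.

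Pgl_GLEAN_10020080 had the second largest step between primary and lateral roots. Its values were 1374.51, 141.02 and 352.94 in the crown root libraries, 39.63, 74.97 and 15.24 in the primary root libraries, and 4.33 in lateral root replicate 1, while it was listed at 0 in lateral root replicates 2 and 3. The whole lateral root signal of this gene was thus 4 recovered counts in a single library. The step between primary and lateral roots of 4.40 rested on the value added before taking logarithms, being 5.09 with 0.5 and 2.07 with 10 in place of 1. The step between crown and primary roots was 3.48, and it was 2.604 without crown root replicate 1, 2.89 without primary root replicate 3 and 4.24 without crown root replicate 2. Without lateral root replicate 1 the gene would be listed at 0 in all lateral root libraries and would leave the group. Only 1 other gene of the 55, Pgl_GLEAN_10035367, was listed at 0 in any library, which was lateral root replicate 3.

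The highest crown root level was that of Pgl_GLEAN_10032144. It reached 176025, 77452 and 85654 normalised counts in the crown root libraries, 25816, 27924 and 21454 in the primary root libraries, and 5439, 2544 and 4539 in the lateral root libraries. Crown root replicate 1 held about as much as the other crown root libraries together, and the steps were 2.08 and 2.65. Its mean was above that of 99.9% of genes in crown roots and still above that of 86.9% in lateral roots. Pgl_GLEAN_10017909 followed with a crown root mean of 80445 ± 10722, a primary root mean of 32147 ± 2244 and a lateral root mean of 12562 ± 3709 (SD, n = 3 each), and its steps were 1.32 and 1.40. Pgl_GLEAN_10035147 had a crown root mean of 73974 ± 9982, a primary root mean of 33552 ± 6200 and a lateral root mean of 15497 ± 1865 (SD, n = 3 each), with steps of 1.15 and 1.10. Even in lateral roots, where they were lowest, their means were above those of 96.4% and 97.4% of genes.

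The evenest gene, chosen after its values were seen, was Pgl_GLEAN_10029363. It had 2744, 2827 and 2854 normalised counts in the crown root libraries, 1263, 1359 and 1295 in the primary root libraries, and 725.45, 603.79 and 489.66 in the lateral root libraries. Each root type was at about the level of the next multiplied by 2.15, and the steps were 1.10 and 1.12. At the other end, Pgl_GLEAN_10000577 had the most uneven steps in favour of crown roots, 3.05 and 1.43. It had 2217, 292.19 and 490.01 normalised counts in the crown root libraries, 99.5, 79.03 and 68.57 in the primary root libraries, and 34.65, 44.35 and 16.63 in the lateral root libraries. Crown root replicate 1 was 5.67 times the mean of the other crown root libraries. Without this library the step between crown and primary roots was 2.20, still larger than that between primary and lateral roots. The opposite case, also chosen after its values were seen, was Pgl_GLEAN_10031408, with steps of 2.09 and 3.90 and means of 24613 ± 13118 for crown, 5470 ± 1655 for primary and 416 ± 307 for lateral roots (SD, n = 3 each).

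**Figure D4:**
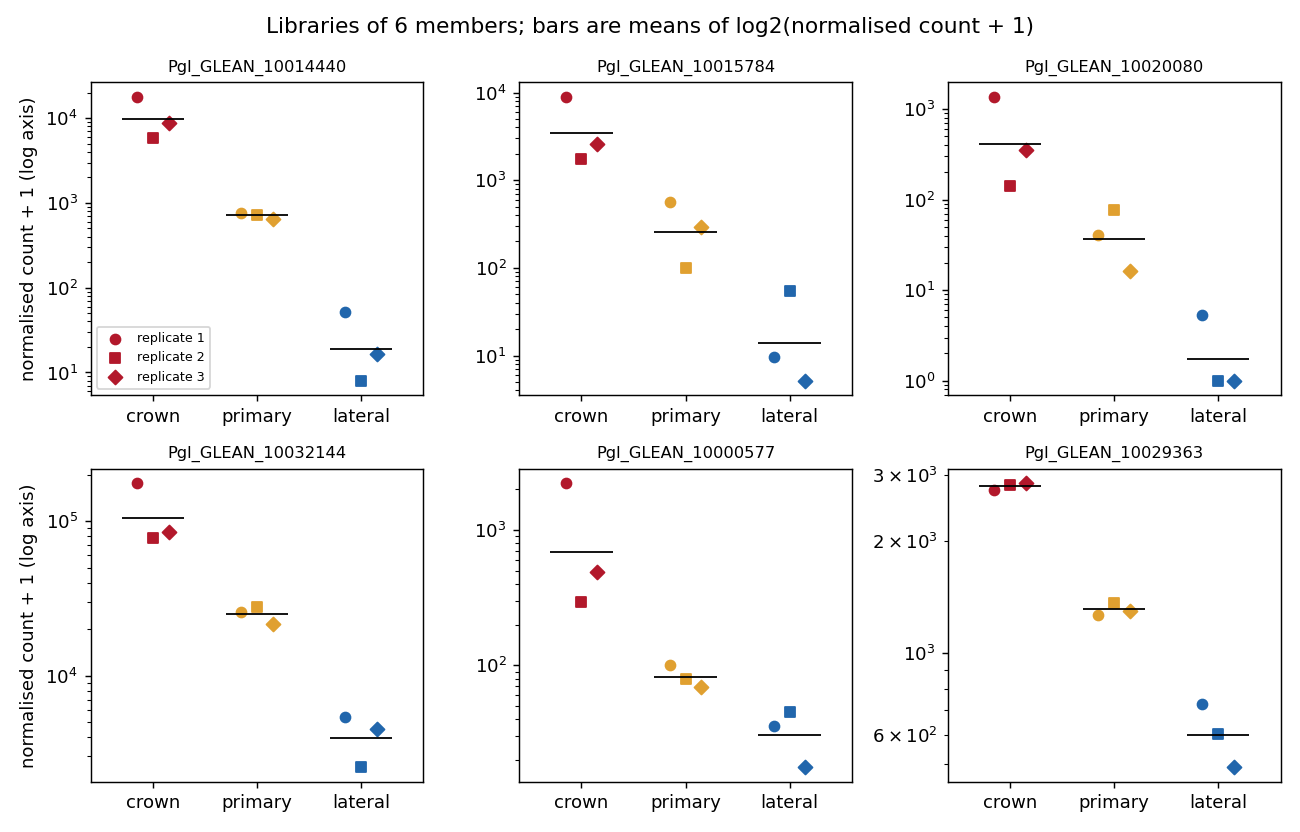
Normalised count + 1 (log axis) of 6 of the 55 genes, with root types side by side (crown, primary, lateral) and 1 point per library shaped by replicate number and bars at the mean of log2(normalised count + 1). Crown root replicate 1 lies highest among crown roots in 5 of the 6 panels, and Pgl_GLEAN_10029363 shows steps of 1.10 and 1.12.

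The choice of the genes did not fix the order of libraries within a root type, and this order was uneven. Crown root replicate 1 was the highest crown root library for 40 of the 55 genes (72.7%), against 7362 of the 16033 genes with an overall mean of at least 100 (45.9%). Its value was over 2 times the mean of the other crown root libraries for 12 of the 55 genes (21.8%), against 654 of 15573 genes with a crown root mean of at least 100 (4.20%). Lateral root replicate 1 was the highest lateral root library for 36 of the 55 genes (65.5%), against 37.0% of the 16033 genes. Primary root replicate 2 was the lowest primary root library for 33 of the 55 genes (60.0%), against 36.5%. What set these libraries apart was not tested.

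The largest steps between crown and primary roots went with this library. All 13 genes with a step of at least 2 had a value in crown root replicate 1 of over 1.5 times the mean of the other crown root libraries, against 6 of the other 42 genes. As that library enters the step, the step was also computed without it. The median step was then 1.34, against 1.44 with all libraries, and 10 genes still had a step of at least 2. The smallest step was 0.75. Leaving out a crown root library can only loosen the thresholds, so all 55 genes met them without crown root replicate 1 by construction. In all, 65 genes did. Crown root replicate 1 was the lowest crown root library for 11 of the 55 genes, the furthest below being Pgl_GLEAN_10028873 with 6280 normalised counts against 11316 and 12170.

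**Figure D5:**
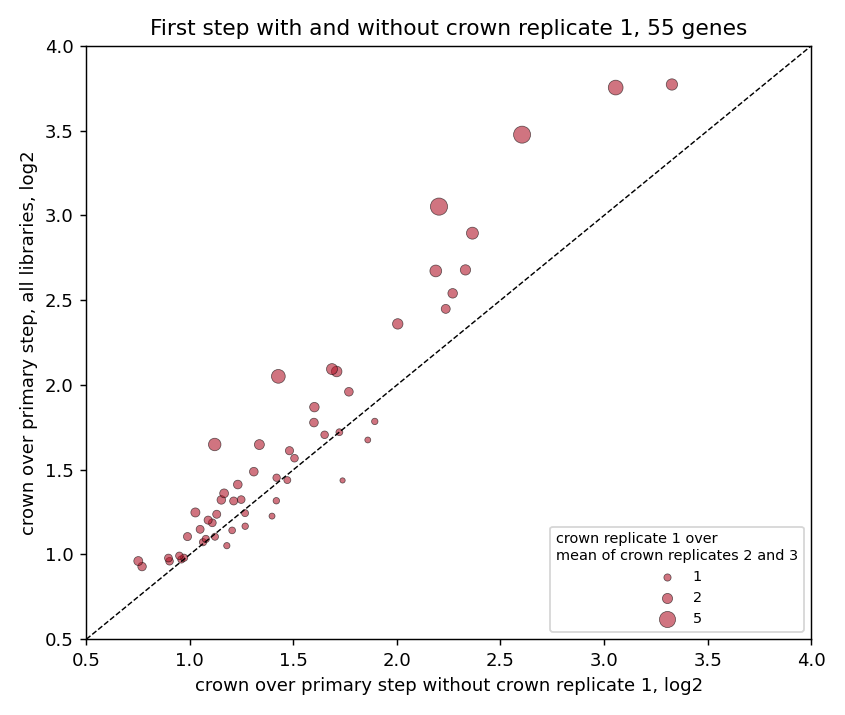
Log2 step between crown and primary roots of the 55 genes from all libraries (vertical axis) and without crown root replicate 1 (horizontal axis), with point size showing crown root replicate 1 over the mean of crown root replicates 2 and 3. Most genes lie above the dashed line of equality, the median being 1.44 with all libraries and 1.34 without that library.

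The spread between libraries of the same root type was wider for these genes than for all genes with a mean of at least 100 in that root type. The median coefficient of variation was 21.8% against 17.1% for crown roots, 18.5% against 12.1% for primary roots and 29.3% against 13.3% for lateral roots. In primary and lateral roots the sets are unlike, since the 55 genes were not held to that minimum there. In crown roots the choice held all 55 to it. Of the 55, 10 had a mean under 100 in primary roots and 22 in lateral roots.

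All genes were compared with limma on log2(normalised count + 1), in 1 fit over the 9 libraries with Benjamini-Hochberg adjustment over 19754 genes, and a gene was called where the adjusted p was under 0.01 and the levels differed by at least 1 on the log2 scale. Higher in crown than in primary roots were 20 of the 55 genes, where 0.4% of all genes were called in that direction. Higher in primary than in lateral roots were 42 of the 55, where 1.08% of all genes were called, and higher in crown than in lateral roots were all 55, where 4.84% were called. The same libraries chose the genes, so these counts describe how many of the chosen genes also met the thresholds of the fit and support nothing further. Between crown and primary roots 6 of the 55 had an adjusted p under 0.01 but were not called, as their log2 difference was below 1. For Pgl_GLEAN_10015784 and Pgl_GLEAN_10020080 the steps were large and the call between crown and primary roots was missed, with standard errors of 0.902 and 0.950 and adjusted p of 0.0329 and 0.052 (limma). Pgl_GLEAN_10014440 was called, with a standard error of 0.581 and an adjusted p of 0.00505 (limma).

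Both steps were called for 19 of the 55 genes, and for 20 genes in all (0.101% of the 19754). The remaining gene was Pgl_GLEAN_10019733, which missed the choice narrowly. The calls between crown and primary roots moved with single libraries. Leaving out crown root replicate 2 or 3 gave 5 or 9 calls among the 55, against 23 or 38 of all genes in that direction. Leaving out primary root replicate 1, 2 or 3 gave 4, 3 or 11 calls, against 17, 15 or 34 of all genes. Without lateral root replicate 2 there were 11, against 32 of all genes. Between primary and lateral roots the calls among the 55 numbered 27 without primary root replicate 1 or 3, against 80 or 77 of all genes. They numbered 25 without lateral root replicate 2 or 3, against 69 or 82 of all genes. Between crown and lateral roots all 55 were called with any 1 library left out, against 742 to 962 of all genes.

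Around the thresholds the values ran on without a gap. Just inside the first threshold was Pgl_GLEAN_10034339, with a lowest crown root value 1.503 times the highest primary root value, and just outside was Pgl_GLEAN_10019733 with 1.472. Between primary and lateral roots the ratio was 1.520 for Pgl_GLEAN_10015795 inside and 1.481 for Pgl_GLEAN_10020246 outside. The lowest crown root value was 111.17 for Pgl_GLEAN_10023372 inside and 90.94 for Pgl_GLEAN_10020460 outside. In all, 235 genes missed only the gap between crown and primary roots, 183 missed only that between primary and lateral roots and 3 missed only the crown root minimum. The counts for the gaps take in any ratio under 1.5, with no lower limit, so they do not count near misses alone. Pgl_GLEAN_10013312 met the crown root conditions but was listed at 0 in all lateral root libraries, with 237.27, 104.5 and 105.77 in crown roots and 30.36, 16.21 and 44.44 in primary roots.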

How the data were processed

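RNA was sequenced from 9 libraries of pearl millet roots, 3 each of crown, primary and lateral roots. The authors trimmed reads with CutAdapt 3.1, mapped them to ASM217483v2 with Hisat2 2.0.1, assembled transcripts with Stringtie 1.3.4 and scaled the counts in DIANE by the size factors of DESeq2, keeping genes whose counts summed to at least 90. How transcripts became counts is not given in the sources used. The deposited signal per gene was thus a normalised count, rounded to 2 decimals. Within 0.1 of a step, 100% of values were whole multiples of 1 step per library, which gave the recovered counts. That 1 count equals 1 read is not known, so no counting interval is given. Columns were assigned by the names in the sample descriptions, and 0 were left unassigned.

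The genes were selected by the stated thresholds. The members, tests and alternatives were chosen with earlier results of these data known. Comparisons over all genes used limma 3.58.1 in R 4.3.3 with a mean-variance trend. The fit was also run on simulated counts, with independent libraries and 200 genes changed 4-fold. Those counts lack the uneven libraries seen here, so that run does not show how the fit behaves with them. Genes were named by the 2 largest steps on each side and the nearest values to each threshold. All other genes were chosen after their values were seen. No gene names were used, so no gene lists or cell type markers were described.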

Additional observations from a re-analysis of the deposited data

How the results depend on the processing

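With a fold of 1.2 in place of 1.5 the thresholds were met by 177 genes, among them all 55, and with a fold of 2 by 13. The other settings gave 40 genes with a crown root minimum of 500 to 66 with quantile normalisation, and 57 to 80 with each library left out in turn, which loosens the thresholds by construction. With a library left out all 55 were kept by construction, except without lateral root replicate 1, where 54 were kept. The 40 genes with a crown root minimum of 500 were all among the 55. With all libraries scaled to equal totals 44 genes met them, 42 of them among the 55, and with quantile normalisation 49 of the 55 were kept. Equal totals moved the median of all genes between crown and primary roots to -0.20 and that of the 55 genes to 1.26. Over all settings the median step stayed between 1.25 and 1.47 between crown and primary roots, and between 1.55 and 2.02 between primary and lateral roots. For these medians and for the named genes the direction was fixed by the choice of the genes.

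Over all genes 313 were called between crown and primary roots, 853 between primary and lateral roots and 2613 between crown and lateral roots. Without the mean-variance trend the first 2 counts were 108 and 438. Between crown and primary roots the count was 50 in the fit of those root types alone and 157 with voom on recovered counts, an alternative chosen after seeing the data. Leaving out 1 library at a time gave 96 to 289, 295 to 1072 and 1950 to 2760. The libraries behind changes of over 1.5 times were, between crown and primary roots, replicates 2 (145) and 3 (194) of crown roots, 1 (129), 2 (96) and 3 (121) of primary roots and 2 (153) and 3 (174) of lateral roots, and, between primary and lateral roots, replicates 1 (413) and 3 (424) of primary roots and 2 (295) and 3 (343) of lateral roots. Such fits have fewer samples by construction. The cause of the other changes was not tested. With equal totals 13.1% of the calls between crown and primary roots had the higher level in crown roots, against 25.2% as deposited, and 25.9% of those between crown and lateral roots, against 36.6%. Over all settings 3 to 25 of the 55 genes were called higher in crown than primary roots, against 10 to 99 of all genes. Without the trend these were 3 of 16, and in the fit of those root types alone 3 of 10. Higher in primary than lateral roots were 25 to 49, against 69 to 304. Higher in crown than lateral roots were 51 (voom) to 55, against 721 to 1151. The count models planned as alternatives were not run, because the lowest value was 2 steps in lateral root replicate 1 and primary root replicate 1 and whole reads were not accepted there.

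With the replicate number as a block the counts were 225, 683 and 2413. The numbers were not taken to pair the libraries, since deviations from the mean of the root type, compared between same-numbered libraries, had correlations from -0.162 to 0.158, with 1 of 9 over 0.1. Depth limits the description of the lowest lateral root values, which rest on few counts.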

Other observations

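Some of the 55 genes had identifiers that follow closely on each other. Within 10 numbers of another of the 55 lay 12 of them (21.8%), in 5 runs, while 2.75% of all 19754 genes lay within 10 numbers of one of the 55. This window was chosen after seeing the identifiers, and no source used here says whether close numbers mean close places in the genome or related sequences, so this is a description and was not tested. Shared reads between near-identical copies were not checked.

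Among the genes with the highest levels, Pgl_GLEAN_10033607, Pgl_GLEAN_10033608 and Pgl_GLEAN_10033610 formed such a run. Their crown root means were 19816, 33358 and 16903 normalised counts, and their log2 steps were 0.97, 0.96 and 1.19 between crown and primary roots and 1.55, 1.05 and 1.07 between primary and lateral roots. The gene numbered between them, Pgl_GLEAN_10033609, had means of 42.2 in crown, 78.2 in primary and 44.6 in lateral roots and did not share the order. Pgl_GLEAN_10033612, which follows, had 74499 in crown, 53305 in primary and 28763 in lateral roots, the same order with smaller steps of 0.48 and 0.90. A further run held Pgl_GLEAN_10035146, Pgl_GLEAN_10035147 and Pgl_GLEAN_10035149, with crown root means of 16083, 73974 and 6200 and steps of 0.98, 1.15 and 1.41 between crown and primary roots. Their steps between primary and lateral roots were 1.29, 1.10 and 2.24. Pgl_GLEAN_10035366 and Pgl_GLEAN_10035367 had nearly the same crown root mean, 474 and 469, but 159 and 78.4 in primary roots and 29.3 and 6.72 in lateral roots.

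The 531 genes outside the group but within 10 numbers of one of the 55 had median steps of 0.03 between crown and primary roots and -0.02 between primary and lateral roots, against -0.02 and 0.00 over all genes. Both steps were above 0 for 148 of them (27.9%) and for 25.1% of all genes.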
